A study of Homo sapiens with 2 samples.

Results

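The regions described here are 6191 stretches of the human genome, named on the array by chromosome, start, end and strand as long intergenic non-coding RNA (lincRNA) regions, each of which was read by only 1 probe. They were chosen by their names on the array and not by any measured value, and they are 6191 of 6802 lincRNA regions considered, the other 611 having several probes each. All coordinates are on hg19, as the array design states, and the letters F and R in the region names were read as the plus and minus strands. RNA came from RWPE-1, a noncancerous human prostate epithelial cell line, grown in serum-free keratinocyte medium and given 30 nM of pre-miR-424, or of a control precursor that served as the negative control, by transfection. Both RNAs were put together on each of 2 Agilent two-colour arrays, with pre-miR-424 in Cy5 and control in Cy3 under normal labelling and the dyes exchanged on the dye swap. The labels call the arrays technical replicates, so they counted as 1 replicate of the comparison, no p-value was computed, and the spread between them holds the error of labelling and hybridisation but not that between cultures.

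A lincRNA is a long transcript that lies between protein-coding genes and carries no long open reading frame. Many are spliced and polyadenylated like messenger RNAs, but most are present at far lower levels and in fewer cell types. A microRNA, loaded into an Argonaute protein, pairs through its seed with target RNAs, mostly in the 3′ UTRs of messenger RNAs, which are then repressed and degraded, and long non-coding RNAs can carry such sites too. A transfected precursor delivers a mature microRNA to cells. The mature sequences of both arms of miR-424 are shown because they are what the transfected precursor can deliver, and the labels do not say which arm was meant. miR-16 and miR-15a are shown beside them because the 5p arm of miR-424 has the same seed as theirs. The sequences are those of RefSeq (GRCh38.p14), 5′ to 3′, with the seed (bases 2 to 8) in capitals.
hsa-miR-424-5p: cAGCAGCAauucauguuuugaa
hsa-miR-424-3p: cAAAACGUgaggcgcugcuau
hsa-miR-16-5p: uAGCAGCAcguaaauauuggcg
hsa-miR-15a-5p: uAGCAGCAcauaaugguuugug
The 3p arm has another seed. The sequences of the regions and their probes were not analysed here, so no region was searched for a site of either arm.

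The probes of these regions were dim. Under normal labelling their spots had a median of 86 in the Cy3 channel, where the local background was 28.5, and of 138 in the Cy5 channel, where it was 70. On the dye swap the medians were 79 over 28 and 142 over 69. The scanner software marked 58.3% and 61.2% of them (Cy3 and Cy5) as well above background on the first array and 53.1% and 60.3% on the second. In all 4 channels 3135 regions (50.6%) were well above background, and 3134 were measured after 1 region with an outlier spot was left out. The share measured was 44.5% for probes of lincRNA regions with several probes, 70.4% for probes of RefSeq mRNAs and 60.5% over the 42405 features of the array. No channel was well above background for 2106 regions (34%), which gives a bound and not an absence of the RNA. As a check of the labelled cell type, all 7 basal epithelial markers on the list (KRT5 and KRT14 among them) were well above background, and so were the luminal markers KRT8 and KRT18, while the luminal markers KLK3 and ACP3 were not. Of the markers of other cell types, 4 of 5 for stroma (not LUM) and 1 of 3 for endothelium (not PECAM1 or VWF) were well above background. The leukocyte marker CD14 was too, as was PTPRC by only 1 of its 4 probes, while CD3E was not.

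Across the measured regions, the level with pre-miR-424 was close to the level with control. All ratios below are log2 ratios of pre-miR-424 over control, given for normal labelling, the dye swap and their mean, with the SD between the 2 arrays. The mean ratio had a median of -0.022, with quartiles at -0.10 and 0.072, and 2810 regions (89.7%) lay within 0.25 of 0. The array medians lay on opposite sides of 0, at 0.041 under normal labelling and -0.081 on the dye swap, so the median differed from 0 by less than the spread between arrays. Over all 25664 measured features the median was -0.007, over RefSeq mRNAs -0.004 and over lincRNA regions with several probes -0.006. The ratios of the 3134 regions on one array tracked those on the other weakly, with a Pearson r of 0.246 and a Spearman rho of 0.114 across regions, which share both RNA extracts and are not independent replicates. The Pearson r turned to -0.0629 under median centring in place of loess and was 0.133 with no filter on dim probes. The sign was the same on both arrays for 1498 regions (47.8%), 676 of them on the higher and 822 on the lower side, where it was 51.4% over all measured features.

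**Figure D1:**
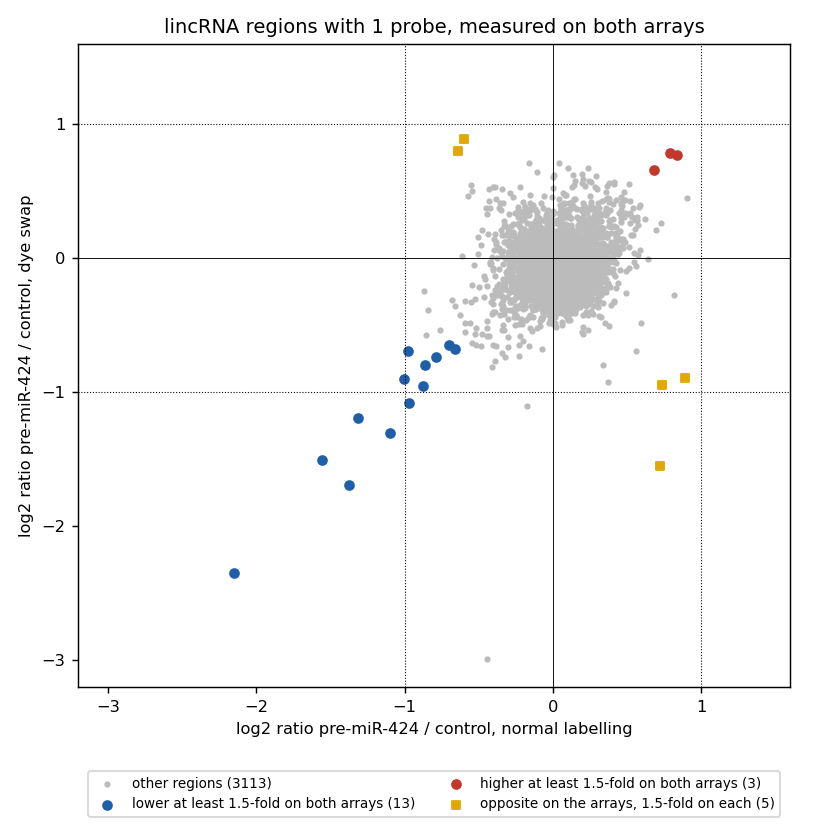
Each point is 1 of the 3134 measured regions, with its log2 ratio of pre-miR-424 over control under normal labelling on the x axis and on the dye swap on the y axis; dotted lines mark 2-fold. Most regions form a round cloud about 0, and 13 regions extend from it along the diagonal on the lower side against 3 on the higher side.

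A region was called changed when its ratio passed a threshold on each array, with 1 sign. At 2-fold, 5 regions (0.16%) were lower with pre-miR-424 and 0 were higher, where 0.0857% of all measured features were lower and 0.0546% higher. The lower regions numbered 14 with the scanner software's ratios, and 1 of 1257 measured regions when the opposite strand could have no probe, with 0 higher in both cases. At 1.5-fold, 13 regions (0.415%) were lower and 3 (0.0957%) higher, where 0.429% of all features were lower and 0.421% higher. At 1.5-fold the share of lower regions was thus close to that of the array as a whole, and the share of higher regions was below it. The regions were dimmer than all features (median log2 brightness 7.68 against 9.43), and the shares were not adjusted for this. The split of 3 higher and 13 lower became 1 and 15 after median centring, 4 and 22 with a smaller offset in the background correction, and 25 and 30 with the scanner's ratios. None of the 10 regions with the highest mean reached 2-fold on either array, while the lowest region was lower by more than 4-fold on both.

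The lowest region lies on the minus strand at chr1:181309852-181429627 and spans 119776 bases. Under normal labelling its spot read 445 for pre-miR-424 against 1323 for control, and on the dye swap 220 against 2262. The control RNA was the brighter one in whichever dye it carried. The log2 ratios were -2.15 and -2.35, with a mean of -2.25 (SD 0.141), a 4.75-fold lower level. The plus strand of the same coordinates, read by its own probe, had ratios of 0.24 and -0.34. The difference between the strands at this place was thus larger than the spread between arrays of either probe.

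On the plus strand of chrX:45555906-45580831, a region of 24926 bases, the ratios were -1.38 and -1.69 (mean -1.53, SD 0.221). This probe was among the bright ones, reading 46695 for pre-miR-424 against 62744 for control under normal labelling, and 12950 against 98318 on the dye swap. The probe of the minus strand of the same coordinates had 0.21 and -0.21, which average to -0.002.

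The region on the minus strand of chr2:37325696-37331035, of 5340 bases, read 1692 against 3290, and 1001 against 5603 on the dye swap. Its ratios of -1.56 and -1.50 (mean -1.53, SD 0.038) were the closest between the arrays of the 5. The plus strand of these coordinates was not well above background in all channels and has no measured ratio.

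The longest of the 5 regions lies on the minus strand at chr7:130528285-130800860 and spans 272576 bases. It read 603 for pre-miR-424 against 1000 for control, and 373 against 1649 on the dye swap. The ratios were -1.31 and -1.19 (mean -1.25, SD 0.087). A short region nested in it on the same strand, chr7:130619611-130620827 (1217 bases), had -0.97 and -1.08 (mean -1.02), just short of 2-fold on 1 array. The other measured probes within the long region did not share this. Of 18 probes of overlapping regions on the minus strand, the nested one was the lowest at -1.02, the next had -0.27, the median was 0.085 and the highest 0.31. The plus strand of the whole stretch had a mean of 0.026. Among these overlapping probes the low value was seen in the long region and the nested one, and in none of the other 17.

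The shortest of the 5 is a region of 601 bases on the plus strand at chr19:57815819-57816419. It read 439 for pre-miR-424 against 627 for control, and 199 against 951 on the dye swap. The ratios were -1.10 and -1.30 (mean -1.20, SD 0.144). A region that shares 31 bases with its end on the same strand, chr19:57816389-57819926, has a pair of probes whose means were both 0.12.

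**Figure D2:**
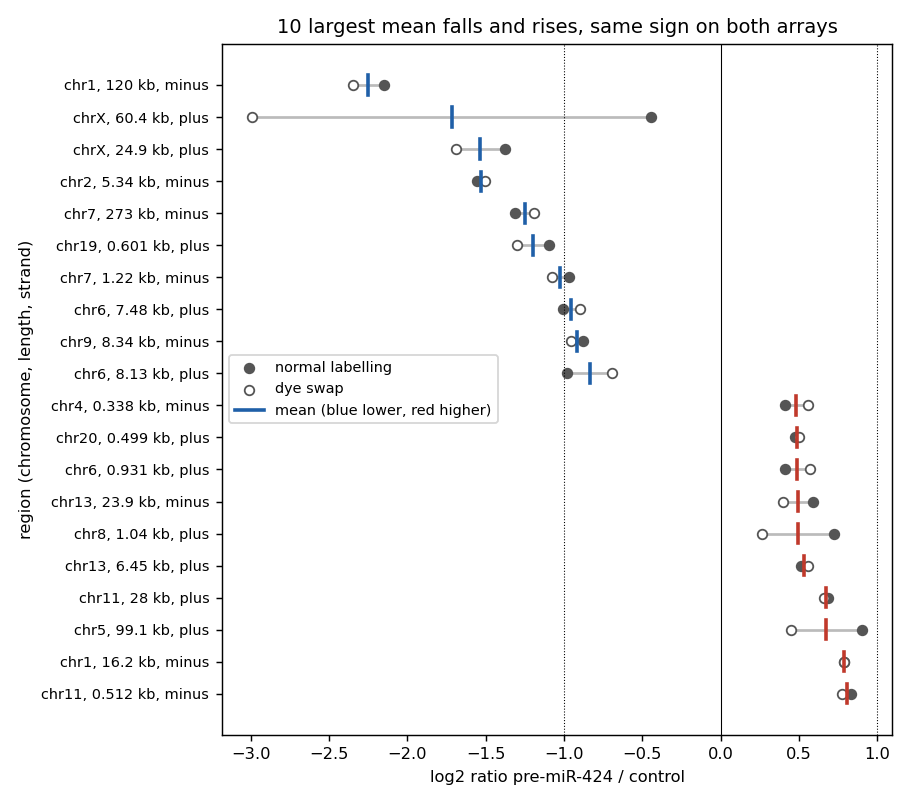
Log2 ratios of pre-miR-424 over control on each array (filled, normal labelling; open, dye swap; coloured bar, mean) for the 10 lowest and 10 highest means among regions with the same sign on both arrays, each labelled by chromosome, length and strand; dotted lines mark 2-fold. The lowest region is at -2.25 and the highest at 0.80, and the gap between the arrays is widest for the bright chrX region of 60426 bases (-0.44 and -2.99), followed by regions of chr8 (0.73 and 0.26) and chr5 (0.90 and 0.45).

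Of the 8 further regions lower by 1.5-fold on both arrays, the nested chromosome 7 region is one, and 2 others overlap each other. On the plus strand of chromosome 6, chr6:151713007-151720482 had ratios of -1.01 and -0.90 (mean -0.95), and chr6:151713007-151721132, which has the same start and a later end, had -0.98 and -0.69 (mean -0.83). These 2 probes thus gave like values, but both regions were named for their low ratios. How much target sequence their probes share was not tested. The minus strand of the shorter one was also lower, at -0.42 and -0.33 (mean -0.37), and the minus strand of the longer one was well above background in the control RNA only.
A region on the minus strand of chromosome 9, chr9:114967654-114975997, had -0.88 and -0.95 (mean -0.92). A second probe, of chr9:114967654-114975954 with the same start and strand, was well above background on both arrays in the control RNA only. Its bound was 1.88-fold lower with pre-miR-424 under normal labelling and 1.51-fold on the dye swap, with a mean over the arrays of 1.69-fold. The remaining 4 were on the minus strand of chrX:53685100-53710450 (mean -0.83), and on the plus strands of chr9:19230794-19276669 (-0.76), chr15:49013058-49023258 (-0.67) and chr21:44456656-44468556 (-0.67). In these 4 the SD between the arrays was from 0.010 to 0.048. Measured regions that overlap the chrX one on its strand did not share its fall, with means of -0.0929 and -0.0787. The opposite strand had a mean of -0.076 for the chrX region and -0.083 for the chr15 region.

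The highest mean belonged to a region of 512 bases on the minus strand at chr11:65271755-65272266. It read 892 for pre-miR-424 against 332 for control, and 522 against 584 on the dye swap, which after normalization gave ratios of 0.83 and 0.77 (mean 0.80, SD 0.043). A region that shares 78 bases with it on the same strand, chr11:65272189-65272464, was higher too, with 0.70 and 0.21 (mean 0.45). On the plus strand, 4 probes of longer regions covering it had means of 0.052, 0.058, 0.077 and 0.63. The probe at 0.63 and the one at 0.052 belong to the same region.
On the minus strand of chr1:204525202-204541352 (16151 bases), the ratios were 0.79 and 0.78 (mean 0.79, SD 0.003). A longer region from the same start on the same strand had a mean of 0.071, so its probe did not share the difference. Within the same stretch on the plus strand, a region with a pair of probes, chr1:204525561-204527207, gave -1.26 by one probe and 0.20 by the other. The third region called at 1.5-fold lies on the plus strand at chr11:17378149-17406149 (28001 bases), reading 3505 against 1442 and then 1826 against 2262, with ratios of 0.68 and 0.66 (mean 0.67, SD 0.016). Its minus strand had a mean of -0.029.

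The next higher means missed 1.5-fold on at least 1 array. The region chr5:120989726-121088801 on the plus strand had 0.90 and 0.45 (mean 0.67), and chr13:36923375-36929825 on the plus strand had 0.51 and 0.56 (mean 0.53). The others of the 10 had means from 0.48 to 0.49. Among them, chr8:67833927-67834962 on the plus strand had the widest gap between arrays, at 0.73 and 0.26, and chr20:37049238-37049736 on the plus strand one of the narrowest, at 0.48 and 0.50. The region chr4:88813780-88814117 on the minus strand (338 bases, 0.41 and 0.55) lies within chr4:88778926-88869076, whose pair of probes on that strand had means of 0.56 and 0.68. For the region chr13:101212549-101236474 on the minus strand (0.59 and 0.40), a region nested in it on the same strand, chr13:101223049-101236424, had a mean of -0.084.

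Exchanging the dyes separates ratios that follow the RNA from ratios that follow the dye. The component of the ratio that followed the dye, Cy5 over Cy3, had a median of 0.058 and an SD of 0.14 across the regions, against an SD of 0.18 for the mean ratio. At 1.5-fold, 5 regions (0.16%) followed the dye on both arrays, 3 with Cy5 higher and 2 with Cy3 higher, where 0.549% of all measured features did. At 2-fold, 0 did, where 0.0974% of all features did. These regions were dimmer than all features (median log2 brightness 7.68 against 9.43), so the shares are not directly comparable. Of the 5 regions, 0 were among the 1881 with a brightness under 8, and 2 were among the 137 at 12 and over. The error of a single array, estimated from the difference between the arrays, was 0.17 for regions with a mean log2 brightness under 8, 0.19 from 8 to 10, 0.23 from 10 to 12 and 0.37 at 12 and over. By this measure the arrays differed most over the 137 regions of the brightest class. The medians of the arrays in that class lay close together, at 0.014 and -0.027, against 0.062 and -0.14 at a brightness of 8 to 10. The offset in the background correction draws ratios of dim probes towards 0, so the errors of the classes are not directly comparable.

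The 3 brightest regions show how far the arrays could differ. On the minus strand of chr2:81861889-82101789 the ratios were 0.72 and -1.55 (SD 1.605). In either array the Cy5 channel was the brighter one, with 310161 for pre-miR-424 against 84880 for control under normal labelling, and 314052 for control against 40056 on the dye swap. On the plus strand of chrX:15690954-15751379 the ratios were -0.44 and -2.99 (mean -1.72, SD 1.799), reading 260784 for pre-miR-424 against 155174 for control, then 18114 against 370432. Its mean was the second lowest of all regions, but the SD between its arrays was larger than that mean, and 8 other probes that overlap it on the same strand had means from -0.28 to 0.071. On the plus strand of chr2:179760655-179914805 the ratios were 0.38 and -0.51. No spot of any region was marked as saturated.

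**Figure D3:**
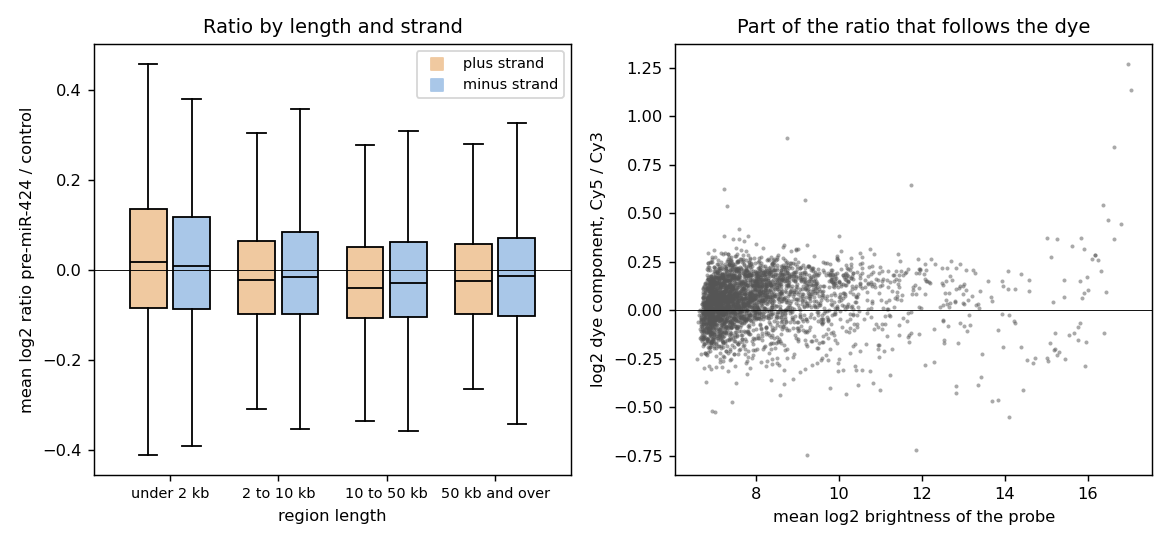
Left, the mean log2 ratio of pre-miR-424 over control by length class and strand of the 3134 regions (box, quartiles with the median; whiskers, to the last value within 1.5 box heights; values beyond not drawn); right, the log2 component of each region's ratio that followed the dye (Cy5 over Cy3) against the probe's mean log2 brightness. The boxes of both strands overlap in every length class, and the dye component spreads widest at a brightness of 12 and over.

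Length and ratio were nearly unrelated. The measured regions ranged from 70 to 1038476 bases, with a median of 11804 and quartiles of 5926 and 25782. Spearman's rho of log length with the mean ratio was -0.0582 over the 3134 regions, and it was -0.0077 under normal labelling and -0.0791 on the dye swap. The median ratio was 0.015 for the 421 measured regions under 2 kb, -0.018 from 2 to 10 kb, -0.033 from 10 to 50 kb and -0.021 for the 460 of 50 kb and over. In the same order, the medians were 0.064, 0.033, 0.041 and 0.045 under normal labelling, and -0.017, -0.067, -0.10 and -0.091 on the dye swap. The class under 2 kb was thus the highest on both arrays, while the order of the others differed between them. The share of regions measured was 54.3% under 2 kb and 43.9% at 50 kb and over. The shortest measured region, chr19:35306021-35306090 on the minus strand, had 0.11 and 0.014, and the longest, chr2:123722255-124760730 on the minus strand, 0.36 and 0.37 (SD 0.010). The opposite strand of the longest one had a mean of -0.027.

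The difference between the strands was within the spread of the arrays. The 1571 regions measured on the plus strand had a median ratio of -0.024 and the 1563 on the minus strand one of -0.020, a difference of -0.004, which was -0.002 under normal labelling and -0.016 on the dye swap. Of the 13 regions lower at 1.5-fold, 7 were on the plus and 6 on the minus strand.

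The names of the regions fall into kinds that the rule did not use. For 3651 regions the distance between start and end was a multiple of 25 bases, and of these 82.4% had the opposite strand on the array as well, against 26.7% of the other 2540. The former had 1820 measured regions with a median ratio of -0.029 and held 10 of the 13 lower regions. The latter had 1314 with a median of -0.009 and held 3. At 1.5-fold, 0.659% of the former and 0.304% of the latter were changed in either direction. Of all measured features 0.429% were lower and 0.421% higher, so with both directions together neither kind was changed more often than the array. In the lower direction alone, the former held 10 of its 1820 regions at 1.5-fold and 4 at 2-fold. These are larger shares than the 0.429% and 0.0857% of all features that were lower, but they rest on few regions. Regions with both strands on the array had a median of -0.034 and those without of -0.001. Under normal labelling these medians were 0.037 and 0.049, and on the dye swap -0.10 and -0.038, so the former was lower on both. By the distance between start and end, the medians were 0.041 and 0.041 under normal labelling, and -0.097 and -0.049 on the dye swap. Neither difference was tested.

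Opposite strands of the same coordinates give 1719 pairs of regions. In 453 pairs both strands were measured, in 399 only the plus strand, in 428 only the minus strand and in 439 neither. The ratios of the strands were nearly unrelated across the 453 pairs, with a Spearman rho of 0.0577. Regions that overlap on the same strand by at least 1 base give 1944 pairs of measured regions, from 1316 regions, with a rho of 0.308, and the 726 pairs that share at least 50% of the longer region had a rho of 0.437. Neighbours on the same strand within 50 kb that do not overlap (227 pairs) had a rho of 0.0843. These correlations are descriptions: the points share both arrays and many regions recur in several pairs. Without the locus that holds the most pairs (235), the overlapping pairs had a rho of 0.282. How much target sequence the probes of overlapping regions share was not tested.

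**Figure D4:**
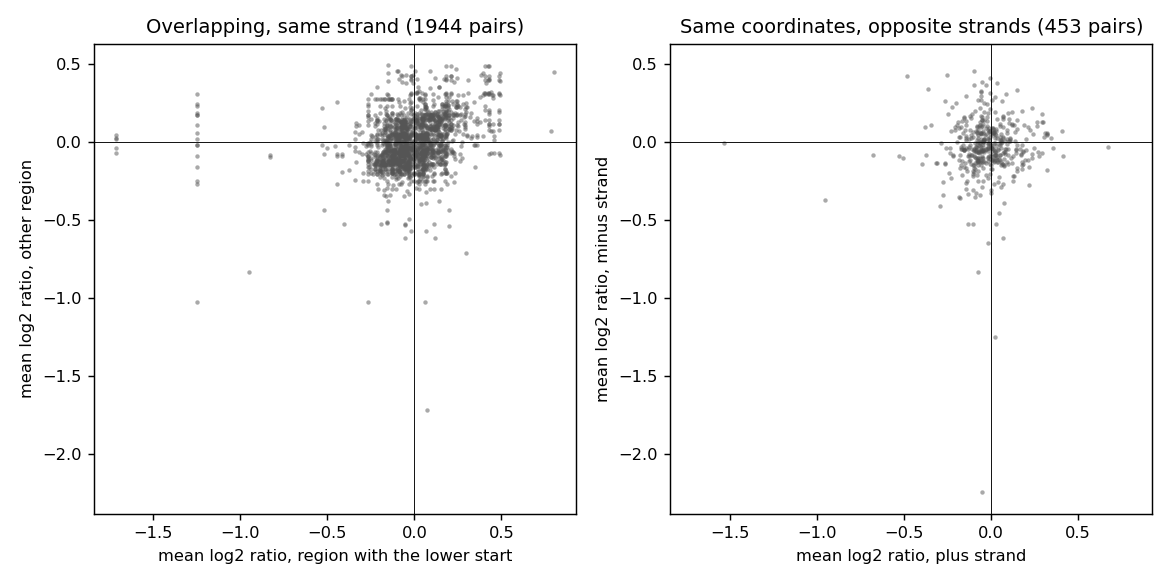
Mean log2 ratios of pre-miR-424 over control of paired regions: left, the 1944 pairs that overlap on the same strand; right, the 453 pairs of opposite strands with the same coordinates. The left cloud tilts upward (rho 0.308) and the right one does not (rho 0.0577); the columns of points at the left edge are bright or long regions that recur in many pairs.

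Joined where they overlap on either strand, the regions form 2332 loci, of which 1623 held a measured region and 711 more than 1. The fullest locus, chr6:86381806-86396056, held 31 measured regions of 32. On its plus strand 10 regions had a median ratio of 0.36 (0.32 under normal labelling and 0.38 on the dye swap), and 9 of them were higher on both arrays. The exception was the longest, whose region spans the whole locus, at -0.019. On its minus strand 21 regions had a median of -0.065 (-0.13 and 0.013), ranging from -0.12 to 0.13. Many of these regions share nearly the same ends, so their values are not independent of each other. The highest of them, chr6:86386806-86387736 on the plus strand, is among the 10 highest means, with 0.41 and 0.57.

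A locus on chromosome 8, chr8:67830421-67838633, held 9 measured regions with a like split. Its 6 plus strand regions had a median of 0.35 (0.47 under normal labelling and 0.22 on the dye swap), of which 4 were higher on both arrays, and its 3 minus strand regions had one of -0.093. At chr20:37034659-37082161 both strands leaned higher: 12 plus strand regions had a median of 0.12 and 8 minus strand regions one of 0.21, and on the minus strand the arrays differed, at 0.36 and 0.051. At chr9:132092579-132121817 the medians were 0.13 on the plus strand (8 regions) and 0.13 on the minus strand (10 regions), but the arrays differed, at 0.27 and 0.024 on the plus strand and 0.14 and 0.059 on the minus strand. At chr9:132236854-132275963, 16 plus strand regions had a median of -0.12, which was 0.025 under normal labelling and -0.25 on the dye swap, so its side rested on 1 array. The loci described here were chosen after their values were seen, among those with at least 8 measured regions.

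**Figure D5:**
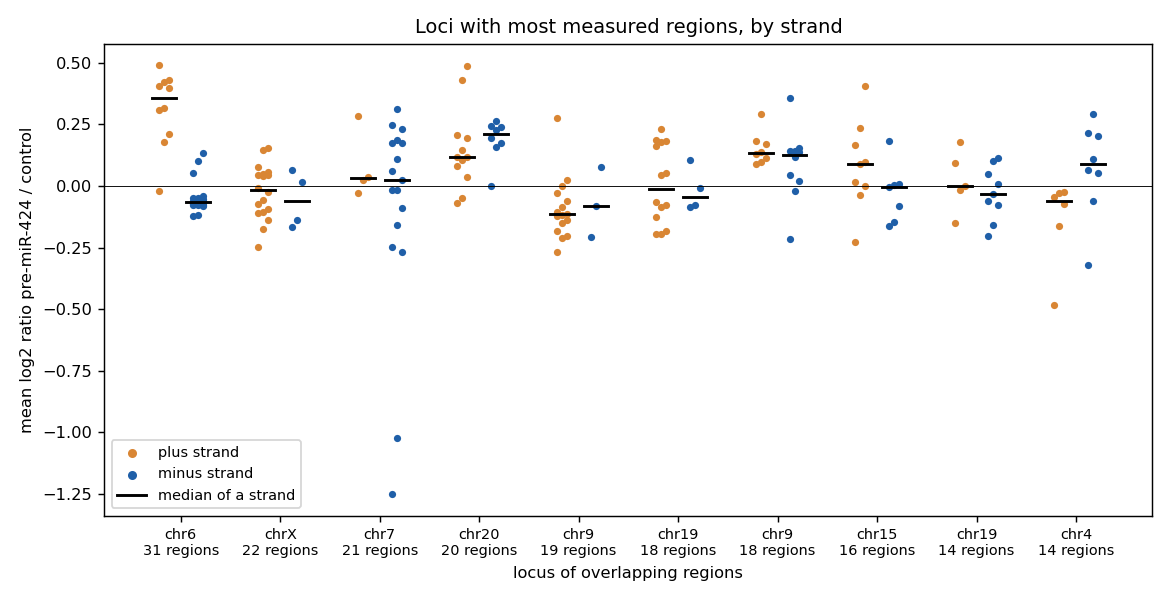
Mean log2 ratio of pre-miR-424 over control of each measured region (points; bar, median of a strand) in the 10 loci with the most measured regions among those with at least 3 on each strand, plus strand left and minus strand right. The strands separate at the chromosome 6 locus (0.36 and -0.065), and at the chromosome 7 locus 2 regions lie at -1.25 and -1.02, apart from the rest.

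The ratio varied little with the distance to the nearest other lincRNA region. The 2067 measured regions that overlap another one had a median of -0.015, the 79 within 5 kb of one -0.046, the 213 at 5 to 50 kb -0.032, and the 775 farther away -0.035. The nearest protein-coding genes were not analysed here, as the array names carry no gene positions.

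Some regions were detected in 1 RNA only. In both arrays 49 regions (0.791%) were well above background with control alone and 11 (0.178%) with pre-miR-424 alone, where 0.439% and 0.106% of all 42405 features were. In Cy5 alone 110 (1.78%) were well above background and in Cy3 alone 5 (0.0808%), where 0.79% and 0.0613% of all features were. Control alone was thus more frequent than pre-miR-424 alone over the whole array as well. For such a region only a bound can be given, the level in the RNA that shows it over, in the other, the higher of its own signal and the lowest signal well above background on that array. Bounds were averaged on the log2 scale over the arrays, so 1 array can lie below the mean. After the chromosome 9 region given above, the largest mean bounds with control were 1.68-fold for chr6:56709666-56716191 and 1.4-fold for chr1:94302812-94310855, both on the minus strand. On the separate arrays they were 1.62 and 1.74, and 1.37 and 1.44. With pre-miR-424 the largest mean bound was 1.32-fold for chr2:37066296-37072571 (plus strand), with 1.38 and 1.27 on the arrays. The next were 1.22-fold for chr2:152645501-152648304 (1.23 and 1.21) and 1.17-fold for chr2:47558914-47559517 (1.19 and 1.16), both on the minus strand. Just outside the filter, 291 regions well above background in 3 of 4 channels had a median ratio of -0.043, and just inside it the dimmest 784 measured regions had one of 0.005.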

How the data were processed

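Labels gave the groups, the dyes and the dose of each of the 2 arrays. The scanner files that the authors deposited hold, per spot, median brightness and local background in each channel as linear intensity, not normalized (Feature Extraction 10.7.3.1), with a log10 ratio (Cy5 over Cy3) from the same software. A deposited table holds log2 ratios, made by steps not given in the sources used here. Set against the ratios computed here, its columns ran Cy5 over Cy3 on both arrays (Pearson r of 0.9908 and 0.9885 across probes), with medians of 0.0236 and 0.0355, and centring unstated. The mean pixel signal planned as the main foreground was not analysed here, and the median signal took its place.

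In limma 3.58.1 (R 4.3.3) background correction was by normexp (offset 50) over every spot, after which control spots were dropped, and each array was normalized by loess. The offset draws ratios of dim probes towards 0, so their differences are understated. Spots of a probe were averaged and ratios turned to pre-miR-424 over control. Levels behind bounds were scaled by Aquantile. A region was measured when no spot was an outlier and all 4 channels were well above background. Lengths, strands and overlaps came from the region names (Python 3.11.15, pandas 2.3.3, numpy 2.4.6, scipy 1.17.1).

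Changed regions passed 2-fold or 1.5-fold (log2 of 1 or 0.585) in the same direction on both arrays. The members and lists were chosen with earlier results of these data known. Named regions were all those changed at 2-fold, the 10 highest and 10 lowest means with 1 sign on both arrays, the 3 brightest, the shortest and longest, and the 3 largest bounds each way. The other regions changed at 1.5-fold were named after their values were seen. The call rule and the overlap search were tested on simulated data. Some lincRNA regions of chromosome 8 and some marker genes are not reported here.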

Additional observations from a re-analysis of the deposited data

How the results depend on the processing

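Regions lower at 2-fold numbered from 4 to 7 and regions higher 0 in 9 alternatives: median centring, an offset of 16 or no correction of the background, the deposited log2 ratios, a looser filter on dim probes or none, keeping outlier spots, a threshold on the mean, and leaving out the brightest regions (4 lower). With the scanner software's log ratios 14 were lower and 0 higher, and of the 5 regions all 5 were called again. Median centring, which left the medians of all features at 0.10 and -0.18, called 4 of the 5 again and put 4 regions on the side of the dye, where the scanner's ratios put 3 and the main values 0. Counting a region as read by 1 probe only when the opposite strand had none left 1257 measured regions, with 1 lower at 2-fold and 4 changed at 1.5-fold. The count at 1.5-fold was 16, and became 26 with an offset of 16, 55 with the scanner's ratios (25 higher and 30 lower) and 25 with a threshold on the mean. Median centring turned its split of 3 higher and 13 lower into 1 and 15. The correlation of the arrays fell to -0.0629 under median centring, was 0.133 with no filter on dim probes and 0.283 without the brightest regions, an alternative chosen after seeing the data. With each array alone, from 6 to 9 regions passed 2-fold and from 41 to 53 passed 1.5-fold, the median ratio lay between -0.0805 and 0.0412, the length relation between -0.0791 and -0.0077 and the strand difference between -0.0157 and -0.00238. The 20 lowest and highest regions kept their sign under every alternative that held them. They were chosen for 1 sign on both arrays, so each array alone could not reverse it, and the filters left their values unchanged. Only the other background corrections, median centring, the scanner's ratios and the deposited ratios could have reversed a sign. The rho of overlapping pairs ranged from 0.185 with no filter to 0.418 with the stricter definition of a region, and that of opposite strands changed sign under normal labelling alone (-0.0572). The cause of these differences was not tested. No paired analysis was possible because each array already holds both RNAs. The relations to the nearest gene were not run, as gene positions on hg19 were not analysed here. The small number of arrays and the dim signals limit every value.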
